A study of Homo sapiens with 12 samples.

Results

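CDC42 is a small GTPase that switches between a GDP-bound and a GTP-bound form, and effector proteins bind the GTP-bound form. Through them it shapes actin filaments, septins and myosin at the cell edge. The effector genes described here were taken by symbol from the array's gene annotation, with every probe of each: the 5 CDC42 effector proteins CDC42EP1 to CDC42EP5, the kinases CDC42BPA and CDC42BPB, the small effectors CDC42SE1 and CDC42SE2, and the scaffold IQGAP1. These 10 genes had 14 of the 47322 probes on the array, and 8 of the 10 were among the 11835 genes detected well enough to be tested.

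The cells were TC71, an established human Ewing sarcoma line, sampled at 48 h in 3 groups of 4 arrays. One group held a mimic of the microRNA miR-130b, one an anti-miR against miR-130b, and one a scramble control. All groups share the same line, so nothing here extends to other tumours. The labels do not name the arm of the mimic, the chemistry of the anti-miR or the way of delivery, and they do not say whether arrays of a group came from separate cultures, so p-values measure the spread between these samples, which may be technical. The series' title names a loop of CDC42, PAK1 and AP-1, and Arhgap1 as a direct target.

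Between 19008 and 20544 probes were detected per array, at a detection p under 0.05, and arrays of a group correlated at 0.989 to 0.994. Median raw intensity was 84.5 to 87.6 on mimic arrays, 72 to 82.5 on anti-miR arrays and 85.5 to 88.8 on scramble arrays. Of the 9 Ewing sarcoma markers with a probe, 8 were detected on all 12 arrays, among them CD99, NKX2-2 and STEAP1, while NPY1R was not detected. None of the 4 blood cell or 4 endothelial markers was detected on 4 or more arrays. By that measure EPCAM was the only detected gene of 5 epithelial markers, and 0 of the 5 were detected on all 12 arrays. Of 5 fibroblast markers 4 were detected on 4 or more arrays, and 2 on all 12. Summed deposited intensities of the 5 were 254 to 357.3 on mimic arrays, 368.3 to 443.7 on anti-miR arrays and 331.4 to 412.3 on scramble arrays.

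A microRNA recognises messages mainly through its seed, bases 2 to 8 from its 5′ end. The mature sequences from RefSeq (GRCh38.p14) are shown for both arms of miR-130b, because the labels do not name the arm of the mimic. Among the 2545 mature human microRNAs searched, 5 others share the seed of the 3p arm and are shown too. That set may not hold every human microRNA, so others may share the seed. Capitals mark the seed. A message site for the 3p seed reads TTGCACT. The first sequence lies at chr22:21653354-21653375 on the plus strand.
hsa-miR-130b-3p: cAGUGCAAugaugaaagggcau
hsa-miR-301a-3p: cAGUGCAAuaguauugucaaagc
hsa-miR-301b-3p: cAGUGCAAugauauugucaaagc
hsa-miR-454-3p: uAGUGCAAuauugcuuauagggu
hsa-miR-3666: cAGUGCAAguguagaugccga
hsa-miR-4295: cAGUGCAAuguuuuccuu
hsa-miR-130b-5p: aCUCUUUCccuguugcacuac
The first 6 carry the same 7 seed bases, AGUGCAA, and the 5p arm carries CUCUUUC. Message sequences of the effector genes were not analysed here, so no seed site is reported for them.

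The arrays asked whether raising or blocking miR-130b changed these messages. In mimic against scramble cells, 0 of the 8 effector genes tested passed limma's threshold of an adjusted p under 0.05, beside 16.2% of all genes tested, and 1 of the 8, IQGAP1, had an unadjusted p under 0.05, beside 32.4% of all genes. In anti-miR against scramble cells, 0 of 8 passed beside 0.186% of all genes, and 2 had an unadjusted p under 0.05, beside 16.6% of all genes. In mimic against anti-miR cells, 1 of 8 passed beside 15% of all genes: CDC42BPA was lower with the mimic, a direction called for 7.19% of all genes. The median log2 difference over the 8 genes was -0.11 in mimic against scramble, -0.06 in anti-miR against scramble and -0.03 in mimic against anti-miR, while over all genes it was -0.0042, -0.016 and 0.015. These comparisons share arrays, so their values are given side by side only.

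Each gene is represented in those counts by its brightest detected probe. When the 11 detected probes of the effector genes were tested among all 20768 detected probes, a second, dimmer probe of CDC42SE2 was called higher in mimic than in scramble cells, beside 6.2% of all probes called higher. It was also called higher in mimic than in anti-miR cells, beside 5.97% of all probes. In anti-miR against scramble cells 0 of the 11 probes passed in limma, beside 0.173% of all probes. An unadjusted p under 0.05 was seen for 2 of the 11, and for 16.6% of all genes in the fit by gene.

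**Figure D1:**
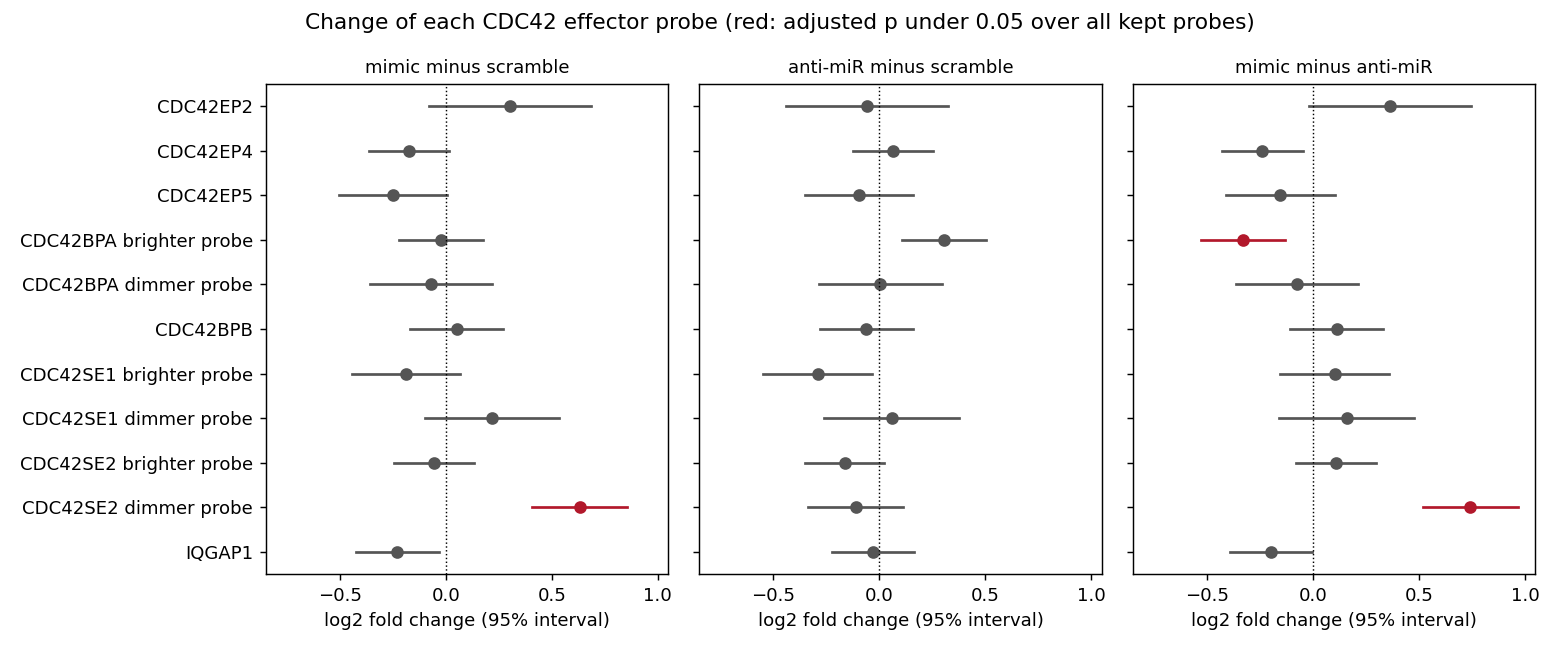
Log2 differences of the detected probes of the CDC42 effector genes in the 3 comparisons, with 95% confidence intervals from the limma fit over all detected probes, and calls in red. The dimmer probe of CDC42SE2 lies at 0.63 in mimic minus scramble and 0.74 in mimic minus anti-miR, and CDC42BPA at -0.33 in mimic minus anti-miR.

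CDC42SE2 is a small protein that binds GTP-bound CDC42 through a CRIB motif, the short CDC42 and Rac binding element shared by many effectors, and is known for a role in actin assembly in T cells. Its dimmer probe, ILMN_1735594, was detected on all 12 arrays, with a detection p of up to 0.030. After normalization it averaged 5.57 in log2 level with the anti-miR and 5.69 with the scramble. That is close to CDC42EP2, a gene near the detection limit, whose group means were 5.31 to 5.67. The raw intensity of the dimmer CDC42SE2 probe was 140.8, 135.1, 141.7 and 129.3 on mimic arrays, 104.4, 108.3, 86.2 and 88.3 on anti-miR arrays, and 118.8, 110.5, 110.1 and 113.6 on scramble arrays. After background correction and quantile normalization the log2 level was 6.39, 6.20, 6.46 and 6.22 with the mimic, 5.68, 5.74, 5.32 and 5.56 with the anti-miR, and 5.66, 5.61, 5.68 and 5.79 with the scramble. Every mimic array lay above all 8 others on both scales, while anti-miR and scramble arrays overlapped in log2 level. The authors' deposited normalized intensity of this probe was 57.9 to 72.5 on mimic arrays, 23.8 to 38.1 on anti-miR arrays and 33.2 to 39.8 on scramble arrays.

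The dimmer CDC42SE2 probe rose by 0.63 ± 0.10 (SE; 95% interval 0.41 to 0.86) on the log2 scale with the mimic against the scramble, a 1.55-fold change, with limma's adjusted p at 0.00368 over all probes. Against the anti-miR it was higher by 0.74 ± 0.10 (0.52 to 0.97), with limma's adjusted p at 0.00141. With the anti-miR against the scramble the difference was -0.11 ± 0.10, with limma's adjusted p at 0.638. Both calls held when any 1 array was left out. Without background correction the rise against the scramble measured 0.34 and still passed.

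The brighter CDC42SE2 probe, ILMN_2313926, which the array's annotation assigns to another RefSeq transcript of the gene, was not called. Its log2 level was 8.86, 9.00, 8.76 and 8.87 on mimic arrays, 8.77, 8.76, 8.67 and 8.85 on anti-miR arrays, and 9.06, 8.94, 8.82 and 8.88 on scramble arrays. The 3 groups overlapped. Mimic minus scramble was -0.06 ± 0.08 (95% interval -0.24 to 0.12), with limma's adjusted p at 0.688. When both probes of CDC42SE2 were averaged, the gene was called higher with the mimic than with the scramble, at 0.29 and limma's adjusted p of 0.0239, and higher than with the anti-miR, at 0.43 and limma's adjusted p of 0.00386. That average of log2 levels gives the dim and the bright probe equal weight. The brighter probe alone was not called in either comparison, at -0.06 and 0.11.

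Whether the 2 probes of the gene moved apart was tested directly, as a comparison added after they were seen to differ, over the 3112 genes with at least 2 detected probes. The log2 difference, dimmer minus brighter, was -2.46, -2.80, -2.30 and -2.65 on mimic arrays, -3.10, -3.02, -3.35 and -3.29 on anti-miR arrays, and -3.40, -3.33, -3.14 and -3.09 on scramble arrays. Every mimic array lay nearer to 0 than the other 8. The shift was 0.69 ± 0.12 (SE; 95% interval 0.42 to 0.95) against the scramble, with limma's adjusted p at 0.0252, and 44 of the 3112 genes, 1.41%, were called in that comparison. A shift at least this large was seen in 39 genes, 1.25%. Against the anti-miR it was 0.64 ± 0.12, with limma's adjusted p at 0.0256, where 1.67% of genes were called. Between anti-miR and scramble it was 0.05, with limma's adjusted p at 0.911, where 0.0964% were called.

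These 2 calls on the probe difference were less firm than those on the dimmer probe alone. The call against the scramble was lost when scramble 1, scramble 2, mimic 3 or mimic 4 was left out, with limma's adjusted p at 0.0711, 0.0629, 0.0666 and 0.0559. The call against the anti-miR was lost when any of 5 arrays was left out, where limma's adjusted p was up to 0.0743. It was also lost without background correction, with a fit over 2 groups and with the replicate number as a block, where limma's adjusted p was 0.0767, 0.0566 and 0.0600.

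**Figure D2:**
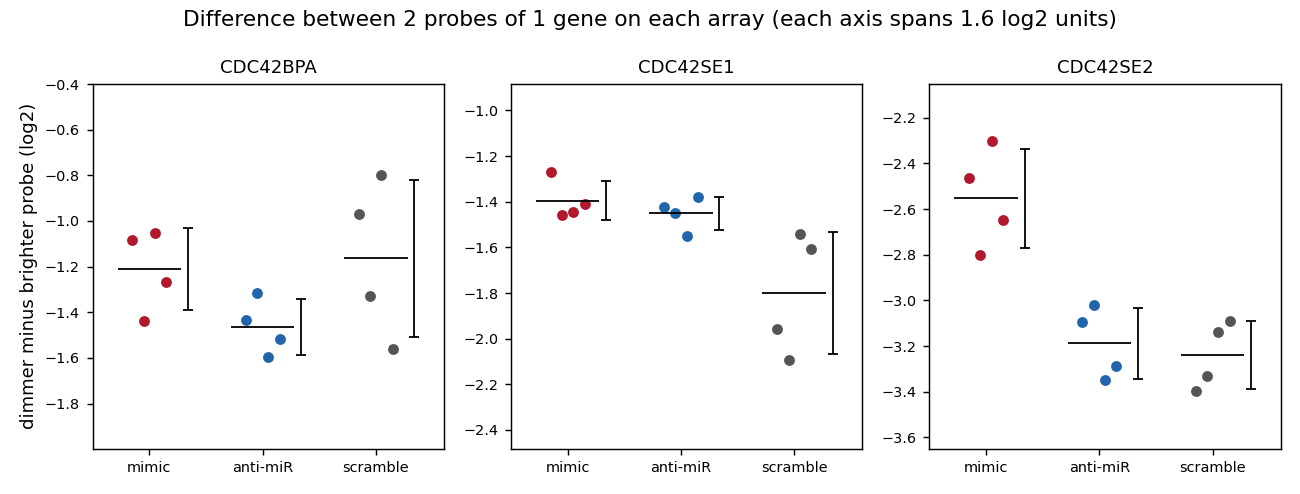
Difference in log2 level between the dimmer and the brighter probe of CDC42BPA, CDC42SE1 and CDC42SE2 on each array, by group, with points as arrays, lines as group means and bars as the mean ± SD. For CDC42SE2 the 4 mimic arrays lie between -2.80 and -2.30, above the anti-miR arrays, at -3.35 to -3.02, and the scramble arrays, at -3.40 to -3.09.

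CDC42SE1, the close relative of CDC42SE2, also had 2 detected probes. Its brighter probe measured 7.53, 7.47, 7.50 and 7.26 in log2 level on mimic arrays, 7.13, 7.73, 7.27 and 7.21 on anti-miR arrays, and 7.64, 7.64, 7.54 and 7.68 on scramble arrays. Mimic and scramble arrays did not overlap, and anti-miR arrays spread over both. The difference was -0.19 ± 0.12 (SE; 95% interval -0.44 to 0.06) for mimic minus scramble, with limma's adjusted p at 0.288, and -0.29 ± 0.12 for anti-miR minus scramble, with limma's adjusted p at 0.240. The dimmer probe gave 0.22 for mimic minus scramble, with limma's adjusted p at 0.361, a difference of opposite sign. The shift between the probes, dimmer minus brighter, was 0.41 ± 0.12 in mimic minus scramble and did not pass, with limma's adjusted p at 0.104. It was 0.35 ± 0.12 in anti-miR minus scramble and 0.06 ± 0.12 in mimic minus anti-miR. Neither passed, with limma's adjusted p at 0.292 and 0.882. With the probes averaged, mimic minus scramble was 0.01.

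CDC42BPA, also called MRCK alpha, is a kinase that binds GTP-bound CDC42 and promotes phosphorylation of the myosin light chain, and so contraction of actin filaments. The raw intensity of its brighter probe was 141.9, 142.2, 134.1 and 144.4 on mimic arrays, 158.7, 147.3, 152.4 and 142 on anti-miR arrays, and 157.9, 157.8, 141.1 and 143.4 on scramble arrays. On the raw scale mimic and anti-miR arrays overlapped. The log2 level after normalization was 6.41, 6.33, 6.32 and 6.49 with the mimic, 6.77, 6.54, 6.83 and 6.73 with the anti-miR, and 6.30, 6.56, 6.36 and 6.42 with the scramble. On that scale every anti-miR array lay above all 4 mimic arrays, and 1 scramble array lay within the anti-miR range. The median raw intensity was lower on anti-miR than on mimic arrays, as given above, and its part in the change of order between the scales was not tested.

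CDC42BPA averaged 6.39 ± 0.08 with the mimic, against 6.72 ± 0.12 with the anti-miR (SD, n = 4 each), a log2 difference of -0.33 ± 0.09 (SE; 95% interval -0.52 to -0.14) and 1.26-fold lower with the mimic, with limma's adjusted p at 0.0239. The scramble group averaged 6.41 ± 0.11. Mimic minus scramble was -0.02 ± 0.09, with limma's adjusted p at 0.884, and anti-miR minus scramble was 0.31 ± 0.09 (0.12 to 0.50), with limma's adjusted p at 0.132 and an unadjusted p of 0.00373. The anti-miR group had the highest mean of the 3, and neither group was called against the scramble. The call against the anti-miR was lost without mimic 1, mimic 3, anti-miR 1 or anti-miR 3, with limma's adjusted p at 0.0537, 0.0537, 0.0602 and 0.0579.

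A dimmer CDC42BPA probe, detected on 9 of 12 arrays, had log2 levels of 4.89 to 5.33 with the mimic, 5.22 to 5.33 with the anti-miR and 4.86 to 5.56 with the scramble. The groups overlapped, and mimic minus anti-miR was -0.08, with limma's adjusted p at 0.753. With both probes averaged the gene's call was lost, at -0.20 and limma's adjusted p of 0.146. The difference between its probes did not pass in any of the 3 comparisons, with limma's adjusted p at 0.916 for mimic minus scramble, 0.456 for anti-miR minus scramble and 0.450 for mimic minus anti-miR.

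Of the 4 fibroblast markers detected, 1 passed in the same comparison, beside 15% of all genes called and 7.19% called lower. DCN, a matrix proteoglycan gene, was lower in mimic than in anti-miR cells by a log2 difference of -0.44, with limma's adjusted p at 0.0167. COL6A3, FAP and LUM differed by -0.24, -0.25 and 0.22 and did not pass, with limma's adjusted p at 0.271, 0.273 and 0.390. COL6A3 and LUM were dim, with group means of 5.11 to 5.40. Against the scramble FAP was called lower with the mimic, at -0.45 and limma's adjusted p of 0.0492, and the other 3 were not called. PDGFRA was not detected. The part of these markers in the CDC42BPA difference was not tested. Over the 12 arrays, the genes whose log2 level followed CDC42BPA most closely among 11834 others were SCGB3A2, TMED1 and DZIP3, with Pearson correlations of 0.912, 0.906 and 0.902. All of these values share the same arrays and normalization.

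CDC42BPB, or MRCK beta, the second kinase of the family, had overlapping arrays in all 3 groups. It averaged 8.68 ± 0.14 with the mimic, 8.57 ± 0.09 with the anti-miR and 8.63 ± 0.16 with the scramble (SD, n = 4 each), on the log2 scale. Mimic minus scramble was 0.05 ± 0.10 (SE; 95% interval -0.16 to 0.26), with limma's adjusted p at 0.766. Neither other comparison passed, with limma's adjusted p at 0.789 for anti-miR minus scramble and 0.471 for mimic minus anti-miR.

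IQGAP1 is a large scaffold that binds GTP-bound CDC42 and actin and, despite its name, does not speed up GTP hydrolysis. Its raw intensity was 451.5, 478.4, 428 and 433.8 on mimic arrays, 428.8, 555.4, 412.7 and 451.5 on anti-miR arrays, and 637.7, 520.6, 532.8 and 492.2 on scramble arrays. Its log2 level was 8.62, 8.62, 8.54 and 8.59 with the mimic, 8.64, 9.00, 8.68 and 8.85 with the anti-miR, and 8.84, 8.80, 8.87 and 8.78 with the scramble. All 4 mimic arrays lay below all 4 scramble arrays on both scales, and below all 4 anti-miR arrays on the normalized one.

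IQGAP1 averaged 8.59 ± 0.04 with the mimic, 8.79 ± 0.17 with the anti-miR and 8.82 ± 0.04 with the scramble (SD, n = 4 each). Mimic minus scramble was -0.23 ± 0.09 (SE; 95% interval -0.41 to -0.04), with an unadjusted p of 0.0195 and limma's adjusted p at 0.0850, so it did not pass. Leaving out anti-miR 2, the highest of its group, brought limma's adjusted p to 0.0482 at the same difference; the cause was not tested. Mimic minus anti-miR was -0.20 ± 0.09, with limma's adjusted p at 0.135, and anti-miR minus scramble was -0.03, with limma's adjusted p at 0.895.

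**Figure D3:**
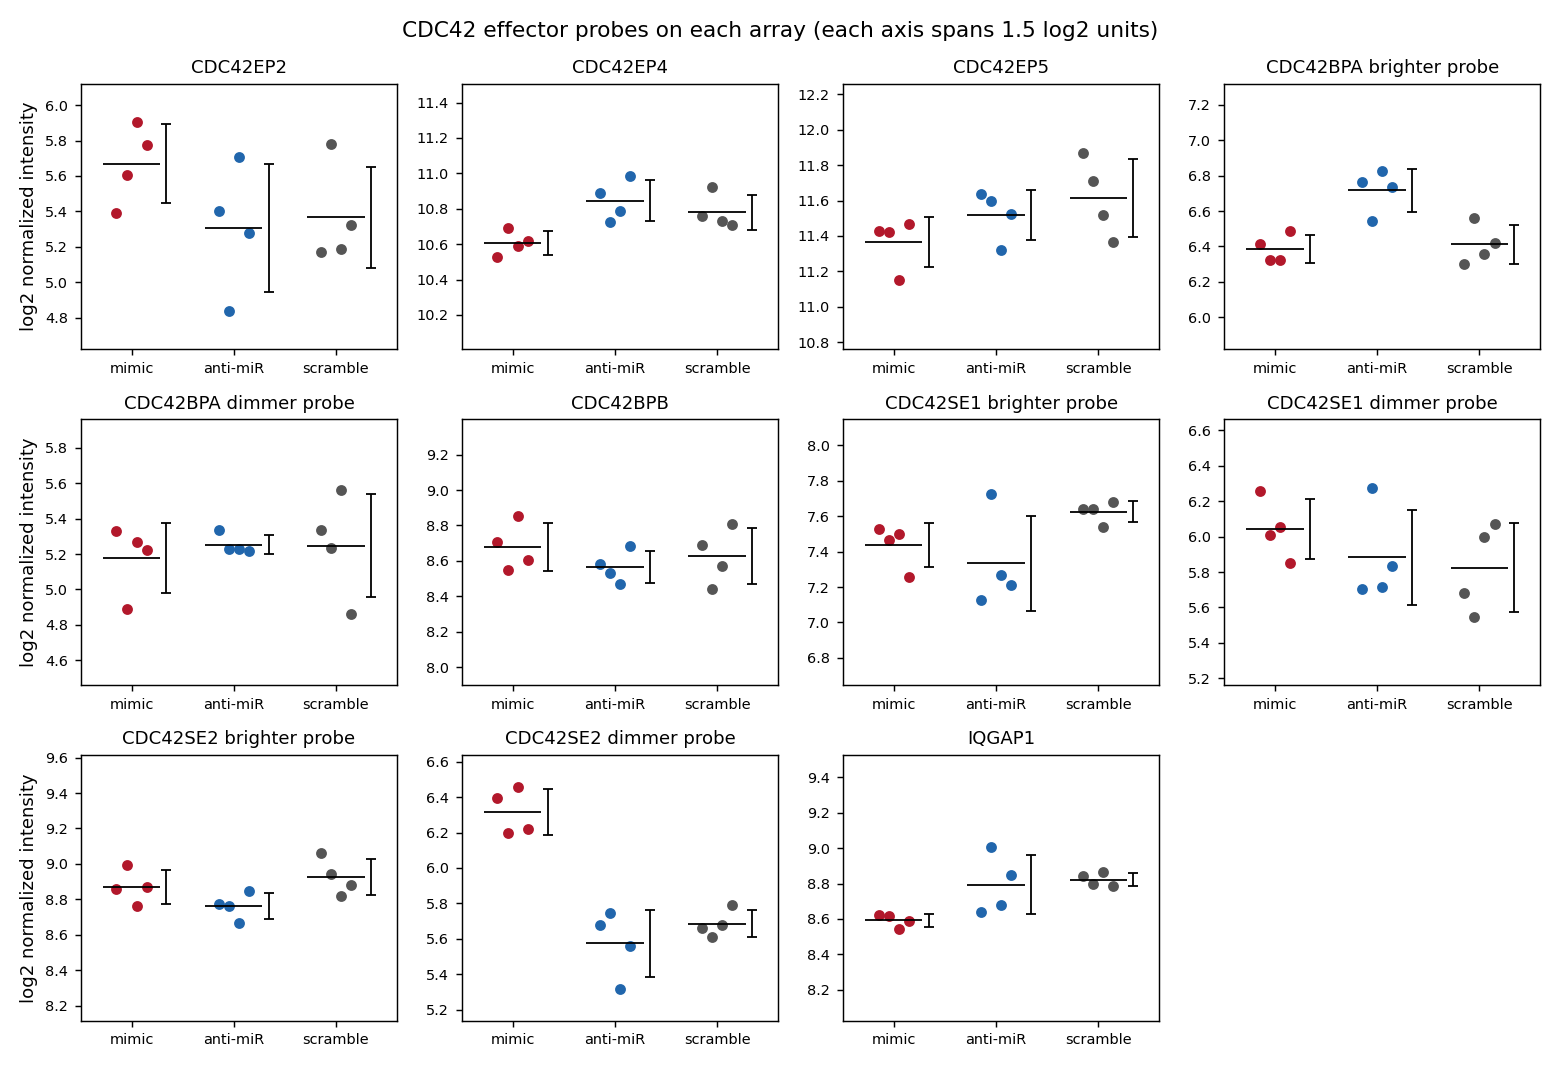
Log2 level of each detected probe of the CDC42 effector genes on each of the 12 arrays, by group; points are arrays, horizontal lines group means and bars the mean ± SD, on axes that do not start at 0. The mimic arrays stand apart from both other groups for the dimmer CDC42SE2 probe, at 6.20 to 6.46, and lie below them for IQGAP1, at 8.54 to 8.62.

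The CDC42 effector proteins, known as Borg proteins, bind GTP-bound CDC42 through a CRIB motif and bind septins, the filament-forming GTPases. CDC42EP4 measured 10.53, 10.69, 10.59 and 10.62 in log2 level on mimic arrays, 10.89, 10.72, 10.78 and 10.98 on anti-miR arrays, and 10.76, 10.93, 10.73 and 10.71 on scramble arrays. Every mimic array lay below all 8 others on that scale. On the raw scale mimic 2, at 1834.2, lay above the anti-miR arrays, at 1644.5 to 1820.3. It also lay within the scramble range of 1734 to 2198.6. Mimic minus scramble was -0.17 ± 0.09 (SE; 95% interval -0.36 to 0.01), with limma's adjusted p at 0.176, and mimic minus anti-miR was -0.24 ± 0.09 (-0.42 to -0.06), with limma's adjusted p at 0.0732. Without background correction the difference from the anti-miR was -0.23 and passed, with limma's adjusted p at 0.0416.

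CDC42EP5 measured 11.43, 11.42, 11.15 and 11.47 in log2 level on mimic arrays, 11.64, 11.60, 11.32 and 11.52 on anti-miR arrays, and 11.87, 11.71, 11.52 and 11.36 on scramble arrays. All groups overlapped, and mimic minus scramble was -0.25 ± 0.12 (SE; 95% interval -0.50 to 0.00), with limma's adjusted p at 0.156. CDC42EP2 was near the detection limit, with a detection p under 0.05 on 4 mimic, 3 anti-miR and 3 scramble arrays. It averaged 5.67 ± 0.22 with the mimic, 5.31 ± 0.36 with the anti-miR and 5.37 ± 0.29 with the scramble (SD, n = 4 each), and mimic minus scramble was 0.30 ± 0.18, with limma's adjusted p at 0.257. For both genes the 2 remaining comparisons did not pass either, with limma's adjusted p between 0.180 and 0.896.

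CDC42EP1 and CDC42EP3 were not tested. Of the 2 CDC42EP1 probes, 1 was detected on 1 of 12 arrays, an anti-miR array, at raw intensities of 69 to 91.8 on mimic, 69.3 to 80.4 on anti-miR and 79.4 to 95.4 on scramble arrays, and the other was detected on none. The CDC42EP3 probe was detected on 1 mimic array, at raw intensities of 79.9 to 94 on mimic, 73 to 81.3 on anti-miR and 73.9 to 94.5 on scramble arrays. These intensities lie around the median of all probes, so no difference could be measured for either gene.

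Overlap between the arrays of 2 groups was counted on the normalized scale. CDC42EP4, CDC42SE1 and IQGAP1 were lower with the mimic than with the scramble without overlap, 3 of 8, beside 10.6% of all genes. CDC42EP4, CDC42BPA and IQGAP1 were lower with the mimic than with the anti-miR without overlap, again 3 of 8, beside 9.1% of all genes. Between anti-miR and scramble 0 of 8 were without overlap, beside 8.94% of all genes in either direction. The median size of the log2 difference in mimic minus scramble was 0.18 over the 8 genes and 0.16 over all genes.

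Genes around the CDC42 switch were counted in 6 lists, which hold 130 genes, 90 of them tested. With the mimic against the scramble 3 rose and 15 fell in limma, 20% of the 90, near the 16.2% of all genes (7.44% higher and 8.76% lower). With the anti-miR against the scramble 0 passed in limma, beside 0.186% of all genes, and 18 had an unadjusted p under 0.05, beside 16.6% of all genes. With the mimic against the anti-miR 4 were higher and 5 lower, 10% of the 90, beside 15% of all genes. CDC42 itself differed by -0.21 ± 0.14 for mimic minus scramble, with limma's adjusted p at 0.319, and by 0.04 for anti-miR minus scramble, with limma's adjusted p at 0.908.

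Exchange factors load GTP onto CDC42, and 4 of the 14 tested fell with the mimic against the scramble while 0 rose, beside 8.76% of all genes lower and 7.44% higher. ARHGEF4 fell by 0.67 ± 0.15 (SE) on the log2 scale, with limma's adjusted p at 0.00910. It was dim, averaging 5.02 with the mimic and 5.70 with the scramble. The CDC42EP3 probe, too dim to be tested, averaged 4.94 with the mimic. FGD3 was also dim, at 5.13 with the mimic and 5.60 with the scramble. DOCK6, FGD3 and VAV1 fell by 0.47, 0.47 and 0.29, and these calls were less firm: DOCK6 was lost in 5 and FGD3 and VAV1 in 9 of the 12 fits that left out an array. Leaving out an array lowered the list's count to between 1 and 3, lowest without scramble 1 or scramble 3. The list's median was -0.06. For anti-miR minus scramble ARHGEF4, DOCK6, FGD3 and VAV1 measured 0.03, -0.27, -0.04 and -0.08, and 0 of the 14 passed in limma. For mimic minus anti-miR 0 of the 14 were higher and 1 was lower, beside 7.85% and 7.19% of all genes.

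GTPase activating proteins and dissociation inhibitors switch CDC42 off or hold it in the cytosol, and 1 of the 14 tested rose while 4 fell, beside 7.44% of all genes higher and 8.76% lower. ARHGAP1, a GTPase activating protein for CDC42, averaged 8.15 ± 0.38 with the mimic, 8.92 ± 0.06 with the anti-miR and 8.73 ± 0.02 with the scramble (SD, n = 4 each). It fell by 0.58 ± 0.14 (SE) with the mimic against the scramble, with limma's adjusted p at 0.0149, and was lower by 0.77 against the anti-miR in limma. ARHGAP33 and RACGAP1 fell by 0.58 and 0.32, although ARHGAP33 was lost in 4 of 12 fits without an array and a second RACGAP1 probe measured 0.11. ARHGDIA, a dissociation inhibitor, rose by 0.35 ± 0.09, with limma's adjusted p at 0.0197, and was lost without scramble 1 or mimic 4. The other dissociation inhibitor called, ARHGDIB, named after its values were seen, fell by 0.31 ± 0.07, with limma's adjusted p at 0.0141, and was called in all 12 fits without an array. The list's count was 5, and 3 without scramble 1, mimic 3 or mimic 4. Its median was -0.03. For anti-miR minus scramble ARHGAP1, ARHGAP33, RACGAP1, ARHGDIA and ARHGDIB measured 0.19, -0.41, -0.08, 0.14 and -0.11, and 0 of the 14 passed in limma. For mimic minus anti-miR 1 of the 14 was higher and 1 was lower, beside 7.85% and 7.19% of all genes.

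Among other CDC42 effectors 1 of 23 tested rose and 6 fell, beside 7.44% of all genes higher and 8.76% lower, with a median of -0.07 against -0.0042 over all genes. WASL, which links CDC42 to the actin nucleating Arp2/3 complex, fell by 0.57 ± 0.09 (SE) on the log2 scale, with limma's adjusted p at 0.00233. IQGAP2, a relative of IQGAP1, and DIAPH2, a formin, fell by 0.47 and 0.45. The DIAPH2 call was lost without scramble 1, scramble 2 or mimic 3. IQGAP2 was dim, averaging 5.51 with the mimic and 5.98 with the scramble. PARD6B, a polarity protein that binds GTP-bound CDC42, rose by 0.65 ± 0.19, with limma's adjusted p at 0.0316, but its arrays overlapped and the call was lost in 5 of 12 fits without an array and under median scaling. The list's count of 7 was 4 without scramble 1 or mimic 4. For anti-miR minus scramble WASL, IQGAP2, DIAPH2 and PARD6B measured -0.26, -0.30, -0.43 and 0.16, and 0 of the 23 passed in limma. For mimic minus anti-miR 1 of the 23 was higher and 2 were lower, beside 7.85% and 7.19% of all genes. DIAPH2 measured -0.01 there, with limma's adjusted p at 0.949.

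Septins, myosin regulators and IQGAP1 partners lie downstream of or beside the effectors. Of the 10 septins tested 0 passed with the mimic against the scramble in limma, beside 16.2% of all genes, and 1 had an unadjusted p under 0.05, beside 32.4% of all genes. SEPTIN10, named after its values were seen, was the 1 of 10 called higher with the mimic than with the anti-miR, beside 7.85% of all genes. The difference was 0.44 ± 0.09 (SE), with limma's adjusted p at 0.00563, while its other probe measured 0.06 there. With probes averaged the call was lost, with limma's adjusted p at 0.122. For SEPTIN10 mimic minus scramble was 0.20 and anti-miR minus scramble was -0.23, and neither passed in limma. In the myosin and cofilin pathway on which the CDC42BPA and CDC42BPB kinases act, 1 of 17 tested rose, beside 7.44% of all genes, the cofilin phosphatase SSH1, by 0.36 ± 0.09, with limma's adjusted p at 0.0141; under median scaling it did not pass, with limma's adjusted p at 0.0764. Of 12 IQGAP1 partners tested 1 fell, beside 8.76% of all genes, CLIP1, which tracks growing microtubule ends, by 0.62 ± 0.09 with limma's adjusted p at 0.00150, while its other probe measured -0.09.

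**Figure D4:**
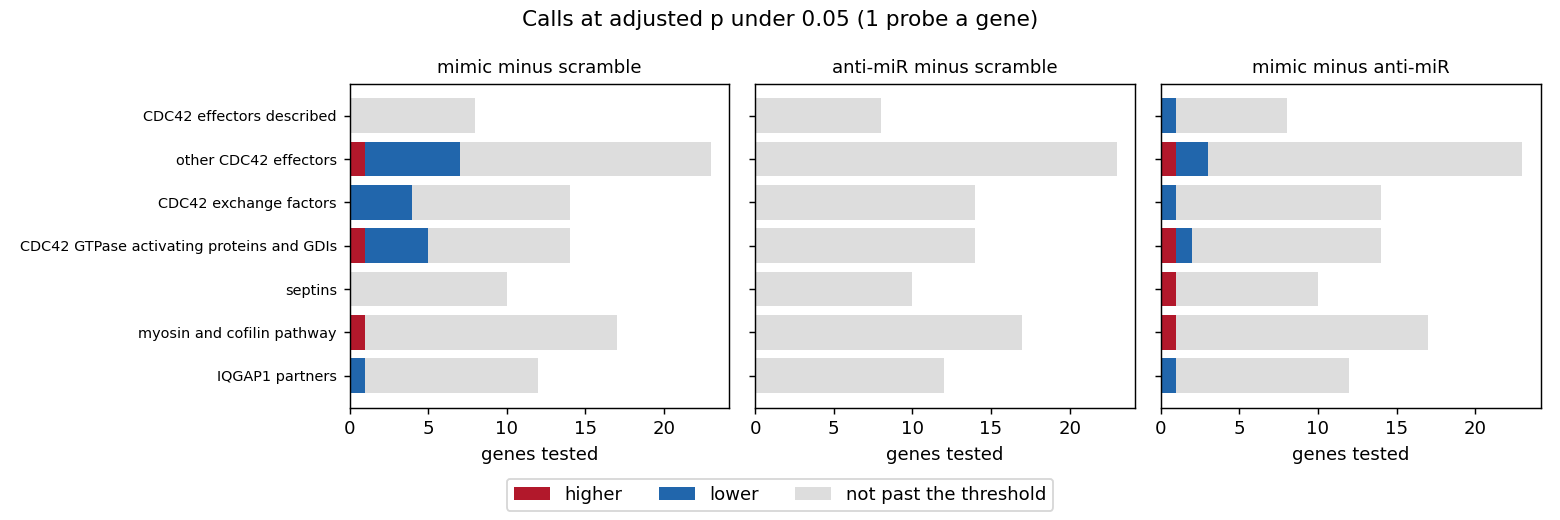
Number of genes tested, called higher and called lower by limma in the 8 tested CDC42 effector genes and in 6 lists of genes around CDC42, for the 3 comparisons. In mimic minus scramble, where 8.76% of all genes were called lower, the lower calls numbered 6 of 23 other effectors, 4 of 14 exchange factors and 4 of 14 GTPase activating proteins and dissociation inhibitors. They numbered 1 of 12 IQGAP1 partners, 0 of 10 septins, 0 of 17 genes of the myosin and cofilin pathway and 0 of the 8 effector genes.

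Promoter windows of 300 bases, which hold an annotated start and mostly the bases before it, were taken from RefSeq (GRCh38.p14) because the series' title names AP-1. There were 11 such windows for 9 of the 10 effector genes, and CDC42EP5 had none. The AP-1 motif TGANTCA, searched on both strands, was in 0 of the 11 windows, beside 7.71% of 35116 windows of all genes. The related cAMP response element TGACGTCA was in 0 of 11, beside 1.85%, and the ETS tandem repeat GGAAGGAA in 1 of 11, beside 3.67%. The repeat is of interest in Ewing sarcoma, whose fusion protein EWS-FLI1 binds GGAA repeats.

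The windows of CDC42SE2, the gene with the called dimmer probe, at chr5:131263803-131264102 on the plus strand, and of IQGAP1, the gene with the repeat, at chr15:90387992-90388291 on the plus strand, read as follows, with the repeat's reverse complement in capitals.
CDC42SE2: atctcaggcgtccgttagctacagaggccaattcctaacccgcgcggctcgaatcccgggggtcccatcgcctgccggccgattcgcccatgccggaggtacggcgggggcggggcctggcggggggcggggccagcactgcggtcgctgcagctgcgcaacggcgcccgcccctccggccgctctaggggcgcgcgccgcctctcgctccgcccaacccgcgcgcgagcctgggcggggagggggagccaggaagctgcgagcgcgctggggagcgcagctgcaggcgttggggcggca
IQGAP1: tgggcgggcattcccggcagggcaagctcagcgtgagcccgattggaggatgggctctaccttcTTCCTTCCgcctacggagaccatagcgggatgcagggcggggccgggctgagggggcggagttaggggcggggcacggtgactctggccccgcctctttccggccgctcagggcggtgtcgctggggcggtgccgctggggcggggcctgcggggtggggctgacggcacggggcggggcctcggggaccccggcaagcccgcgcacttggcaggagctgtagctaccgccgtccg
Their GC content was 76.3% and 74%, beside a median of 58.7% over all windows. A match is a run of letters and not a measured binding site. The CDC42SE2 window lies inside the annotated gene, chr5:131210052-131394672, and was not matched to the transcript of either probe.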

How the data were processed

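Biotin-labelled cRNA from 12 TC71 samples was hybridised to Illumina BeadChips, per the labels. The deposited raw table holds, per the file headers, the mean intensity of each probe on a linear scale and a detection p-value. The authors' deposited normalized table holds intensity with a median of 12 on every array and 159270 values below 0. Its method is not given in the sources used here.

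Raw intensities were corrected with limma's normexp model from the detection p-values (offset 16), quantile normalized and converted to log2, so log2 values here were computed from the deposited intensities and the offset understates changes of dim probes. Probes with a detection p under 0.05 on at least 4 of 12 arrays were kept, 20768 in all, and each of 11835 genes was represented by its brightest kept probe. A mean per group was fitted over the 12 arrays (limma 3.58.1, R 4.3.3), with Benjamini-Hochberg adjustment within each comparison and calls at an adjusted p under 0.05. A second fit covered all kept probes. The median standard error of a log2 difference was 0.11, and the number of arrays limits the precision. The script was tested on simulated data.

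The platform annotation gave 1 gene for 30113 probes, several for 8 and none for 17201, and 30074 were matched to RefSeq by gene identifier. All 10 effector genes are named with every probe. From the 6 lists at most 4 genes a list were named, those with the largest change among the called genes of mimic minus scramble, with CDC42 and ARHGAP1 always; SEPTIN10 and ARHGDIB were added after their values were seen. For the called effector gene, the 3 genes with the highest correlation were named. The members and lists were chosen with earlier results of these data known. Alternatives covered background correction, scaling, the deposited table, the filter, the choice of probe, the arrays fitted, a replicate block and leaving out each array. Same-numbered arrays of different groups deviated together in only 2 of 12 pairs, at a correlation over 0.1, within a range of -0.22 to 0.23.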

Additional observations from a re-analysis of the deposited data

Results flagged for a closer look

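Among the 33 sets of 4 arrays checked, 3 groups for each of the 11 detected probes of the CDC42 effector genes, 2 had an array far from the other 3; chance flags about 1 in 20. CDC42EP5 measured 11.15 on mimic 3 in log2 level, and the other 3 mimic arrays lay between 11.42 and 11.47. The dimmer CDC42BPA probe measured 5.33 on anti-miR 1, and the other 3 anti-miR arrays lay between 5.22 and 5.23.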

How the results depend on the processing

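Over all genes, 22 were called in anti-miR minus scramble, against 36 without background correction, 13 with the deposited table, 10 without the filter, 2 with the replicate block, 0 with median scaling or a fit over 2 groups, and 0 to 32 when an array was left out. Leaving out an array gave 1112 to 2086 in mimic minus scramble (1918 with all; lowest without scramble 1) and 887 to 1868 in mimic minus anti-miR (1780 with all; lowest without mimic 1). Median scaling gave 1444 in mimic minus scramble, 34.6% of them higher against 45.9%, and shifted the median of all genes to -0.05. Effector genes called in mimic minus scramble numbered 0, but 1 with probes averaged (CDC42SE2), and 0 to 1 without an array. In mimic minus anti-miR they numbered 1, but 2 without background correction, and 0 to 1 without an array; with probes averaged the 1 called was CDC42SE2 (0.43) in place of CDC42BPA (-0.20). The replicate block gave 1801 genes in mimic minus scramble and 1592 in mimic minus anti-miR; it ended the call on the CDC42SE2 probe difference in mimic minus anti-miR (0.64) and changed no other call on an effector gene.

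The dimmer CDC42SE2 probe stayed called in every alternative run, at 0.34 to 0.67 in mimic minus scramble and 0.39 to 0.80 in mimic minus anti-miR. Its shift relative to the brighter probe in mimic minus anti-miR fell to 0.30 without background correction and was not called there. Log2 differences that changed sign were uncalled and small, except CDC42SE2 with probes averaged, at 0.29 in mimic minus scramble; CDC42SE1 then measured 0.014, and the dimmer CDC42BPA probe -0.019 in anti-miR minus scramble under median scaling. Leaving out an array gave these ranges across 0. In mimic minus scramble they were -0.060 to 0.027 for CDC42BPA, -0.20 to 0.035 for its dimmer probe and -0.011 to 0.11 for CDC42BPB. In anti-miR minus scramble they were -0.12 to 0.11 for the dimmer CDC42BPA probe, -0.19 to 0.097 for CDC42EP2, -0.073 to 0.14 for the dimmer CDC42SE1 probe, -0.10 to 0.021 for IQGAP1 and -0.0038 to 0.11 for the CDC42SE2 probe difference. In mimic minus anti-miR the dimmer CDC42BPA probe ranged from -0.13 to 0.021. The cause of these changes was not tested. CDC42EP1, CDC42EP3 and CDC42EP2 lie near background, which limits what could be measured for them. The dimmer CDC42SE2 probe was also dim in anti-miR and scramble cells, averaging 5.57 and 5.69 in log2 level.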
